A study of Macaca mulatta with 6 samples.

Results

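The genes described here encode small leucine-rich proteoglycans (SLRPs), and they were chosen by name from the table of read counts: decorin (DCN), biglycan (BGN), asporin (ASPN), lumican (LUM), fibromodulin (FMOD), PRELP, osteomodulin (OMD), osteoglycin (OGN) and podocan (PODN). Of these 9 names, 8 were found among the 17795 rows of the table and OMD was not analysed here. A count above 0 was found for 7 of the 8, and 6 passed the filter on low counts, as did 11539 genes in all. The counts come from bulk RNA sequencing of rhesus monkey testicular cells that the study grew as spermatogonial stem cells (SSCs), the stem cells of the male germline. The question was what PDGF in the medium changes in these cultures.

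In the 3D culture that the study describes, cells were embedded in droplets of a basement membrane hydrogel (RGF BME Type 2) and covered with StemPro-34 medium. The study also calls its system a collagen-PDGF hydrogel or scaffold, while its culture methods name no separate collagen. The 3 libraries labelled PDGF received human PDGF (platelet-derived growth factor, a mitogen of mesenchymal cells), and the 3 labelled PDGFNO did not. The study's culture recipe held PDGF together with fetal serum, GDNF, EGF, LIF, bFGF, Wnt3a, melatonin and vitamin C. The study names the other cultures only as PDGF-free controls. That they otherwise had the same medium and matrix is assumed here. Both the serum and the matrix are themselves sources of extracellular matrix and growth factors. The labels give the tissue as testis and place replicate 1 of each group in batch 1 and replicates 2 and 3 in batch 2. Donors and days in culture are not stated in the sources used here, nor whether replicates are separate cultures, so p-values measure the spread between these libraries, which may be technical. In bulk RNA, fewer cells of a type and less RNA per cell cannot be told apart.

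SLRPs are secreted proteins with a short core of leucine-rich repeats, and most carry glycosaminoglycan chains of chondroitin, dermatan or keratan sulfate. They bind to fibrillar collagens and set the width and spacing of fibrils, and several also bind TGF-beta family ligands and cell surface receptors. In the testis, connective tissue and the peritubular wall around the seminiferous tubules are the usual sites of decorin and biglycan.

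Library totals ranged from 13095467 to 14102697 counts in the PDGF group and from 10593805 to 11605908 in the PDGFNO group. Replicates 2 and 3 of a group lay close together, and replicate 1 stood apart in both groups. Over all 11539 genes tested, edgeR's quasi-likelihood test called 878 genes higher and 1230 lower with PDGF at a Benjamini-Hochberg adjusted p under 0.05. The median log2 fold change over all genes was 0.018, and 48.6% of genes had a negative one. All fold changes are given as PDGF over PDGFNO.

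Osteoglycin and asporin were lower with PDGF, by 4.10-fold and 5.45-fold, and the other tested SLRP genes had smaller negative log2 fold changes that did not pass the test. The log2 fold change was thus negative for 6 of the 6 tested members, with a median of -0.587, and 2 of 6 were called lower, where 10.7% of all genes tested were. No member was called higher (0 of 6, where 7.61% of all genes were), and the number was also 0 by DESeq2, by limma-voom and at an unadjusted p under 0.05. When the replicate number was kept as a block, 5 of 6 members were called lower and 0 higher, against 29.0% and 31.1% of all genes. In 4 of the 6, every PDGF library was below every PDGFNO library, a pattern that 19.3% of all genes showed.

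**Figure D1:**
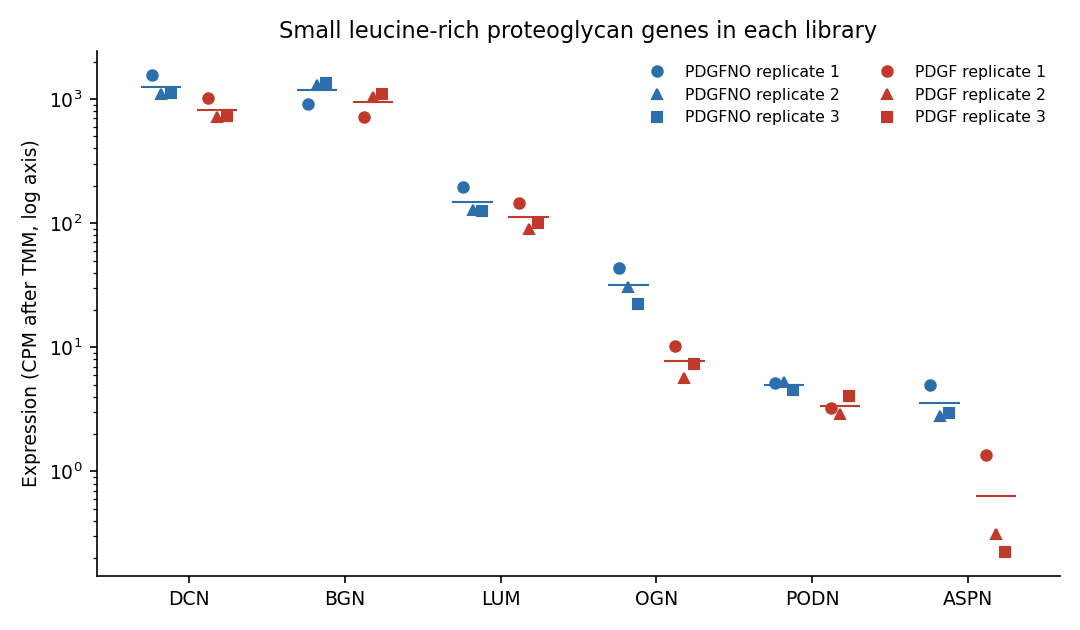
Expression of the 6 tested SLRP genes in each library, in counts-per-million after TMM scaling (CPM, log axis). Points are libraries, with the shape giving the replicate, and horizontal lines are group means of 3. The PDGF libraries of DCN, OGN, PODN and ASPN all lie below the PDGFNO libraries, and OGN and ASPN are the furthest apart.

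Class I holds decorin, biglycan and asporin, which bind collagen fibrils and TGF-beta family ligands. Decorin carries a single chondroitin or dermatan sulfate chain, and its core also binds the receptors EGFR and MET. DCN stood at 1013, 714 and 724 CPM in PDGF replicates 1, 2 and 3 and at 1572, 1088 and 1115 CPM in the matching PDGFNO replicates. All PDGF libraries were lower, and in each group replicate 1 was the highest. The means were 817 ± 170 and 1258 ± 272 CPM (SD, n = 3), and the log2 fold change of -0.62 (SE 0.199) did not pass the threshold (edgeR adjusted p = 0.0647). With the replicate block the log2 fold change was again -0.62, with an SE of 0.0359, and passed (edgeR adjusted p = 1.99e-12). Within batch 1 the difference in log2 CPM was -0.63 and within batch 2 it was -0.62. DESeq2 called DCN lower (adjusted p = 0.0345) and limma-voom did not (adjusted p = 0.0658). With a single library left out, edgeR called it in 1 of 6 fits, the one without PDGF replicate 1 (adjusted p = 0.0216), and the others had adjusted p from 0.0945 to 0.187.

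Biglycan is the closest relative of decorin and also serves, when free of the matrix, as a ligand of the innate receptors TLR2 and TLR4. BGN stood at 717.6, 1045 and 1100 CPM in PDGF replicates 1, 2 and 3 and at 913.1, 1295 and 1347 CPM in PDGFNO replicates 1, 2 and 3. Here replicate 1 was the lowest of each group, the opposite of DCN, and the groups overlapped, although each PDGF library was below the PDGFNO library of the same number. The group means were 954 ± 207 and 1185 ± 237 CPM (SD, n = 3), with a log2 fold change of -0.31 (SE 0.208, edgeR adjusted p = 0.331). With the replicate block BGN was called lower, at a log2 fold change of -0.32 (SE 0.0359, edgeR adjusted p = 1.35e-07). The differences within batches 1 and 2 were -0.35 and -0.30 on the log2 scale.

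Asporin binds collagen but, unlike the other class I proteins, has no glycosaminoglycan chain. ASPN was scarce, with 20, 4 and 3 counts in PDGF replicates 1, 2 and 3 and 60, 29 and 30 counts in PDGFNO replicates 1, 2 and 3. These counts correspond to 1.35, 0.313 and 0.225 CPM with PDGF and to 4.93, 2.78 and 2.94 CPM without it. No PDGF library reached the lowest PDGFNO library, and replicate 1 was the highest in both groups. The mean level was 0.629 ± 0.626 CPM with PDGF and 3.55 ± 1.20 CPM without it (SD, n = 3), and the log2 fold change of -2.45 (SE 0.615) passed the threshold (edgeR adjusted p = 0.0287).

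The size of the ASPN difference was not the same in the batches, at -1.84 in batch 1 and -3.26 in batch 2 on the log2 scale. The call rested on few reads. It was lost without PDGF replicate 2 (edgeR adjusted p = 0.0916) or 3 (0.0825) and without PDGFNO replicate 2 (0.0591) or 3 (0.0653), and it held without replicate 1 of either group. With the replicate block the log2 fold change was -2.59 (SE 0.472, edgeR adjusted p = 6.92e-05).

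Lumican, fibromodulin and PRELP belong to class II, whose members can carry keratan sulfate or sulfated tyrosines. Lumican is a collagen partner of cornea, skin and tendon. LUM stood at 144.5, 89.53 and 99.77 CPM in PDGF replicates 1, 2 and 3 and at 195.4, 127.0 and 124.4 CPM in PDGFNO replicates 1, 2 and 3. The groups overlapped, since PDGF replicate 1 was above PDGFNO replicates 2 and 3. LUM averaged 111 ± 29.2 CPM with PDGF and 149 ± 40.2 CPM without (SD, n = 3), a log2 fold change of -0.42 (SE 0.243) that did not pass (edgeR adjusted p = 0.266). The block gave the same log2 fold change, -0.42, with an SE of 0.0567, and called LUM lower (edgeR adjusted p = 1.64e-06). Within batches 1 and 2 the LUM difference was -0.44 and -0.41.

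The other class II genes gave no test. FMOD, which competes with lumican for a site on collagen, had 0 counts in each PDGF library and 1, 0 and 3 counts in PDGFNO replicates 1, 2 and 3. A total of 0 allows up to 3 counts, and the exact 95% interval of the ratio of PDGFNO to PDGF began at 0.823, so a difference in FMOD was not detectable at this depth. PRELP, which links basement membranes to connective tissue, was listed at 0 in all 6 libraries, as were 3004 rows of the table. Of 62 cytosolic ribosomal protein genes listed, 3 (RPL10, RPS2 and RPS27) were also at 0, so that a listed 0 cannot be read as absence of the transcript.

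Osteoglycin, also called mimecan, is a class III member found in bone, vessel wall and other connective tissue. OGN had 153, 73 and 97 counts in PDGF replicates 1, 2 and 3 and 526, 318 and 226 counts in PDGFNO replicates 1, 2 and 3. The levels were 10.33, 5.708 and 7.287 CPM with PDGF and 43.2, 30.46 and 22.14 CPM without it. The highest PDGF library was below the lowest PDGFNO library, and replicate 1 was again the highest of each group.

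Mean OGN was 7.77 ± 2.35 CPM with PDGF and 31.9 ± 10.6 CPM without it (SD, n = 3), a log2 fold change of -2.03 (SE 0.31, edgeR adjusted p = 0.00371). The difference was nearly the same in both batches, -2.06 in batch 1 and -2.004 in batch 2. OGN was called lower in 6 of the 6 fits that left out a single library, with log2 fold changes from -2.29 to -1.76. With the replicate block the adjusted p was 8.17e-11 (edgeR).

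Podocan, of class V, binds collagen and restrains smooth muscle cell growth in vessels. PODN stood at 3.24, 2.893 and 4.057 CPM in PDGF replicates 1, 2 and 3 and at 5.174, 5.268 and 4.507 CPM in PDGFNO replicates 1, 2 and 3. The groups did not overlap, but the nearest libraries of the groups were close. The means were 3.40 ± 0.597 and 4.98 ± 0.415 CPM (SD, n = 3), and the log2 fold change of -0.55 (SE 0.252) did not pass (edgeR adjusted p = 0.168). PODN was the only tested member without a call under the replicate block (log2 fold change -0.56, SE 0.278, edgeR adjusted p = 0.0885).

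**Figure D2:**
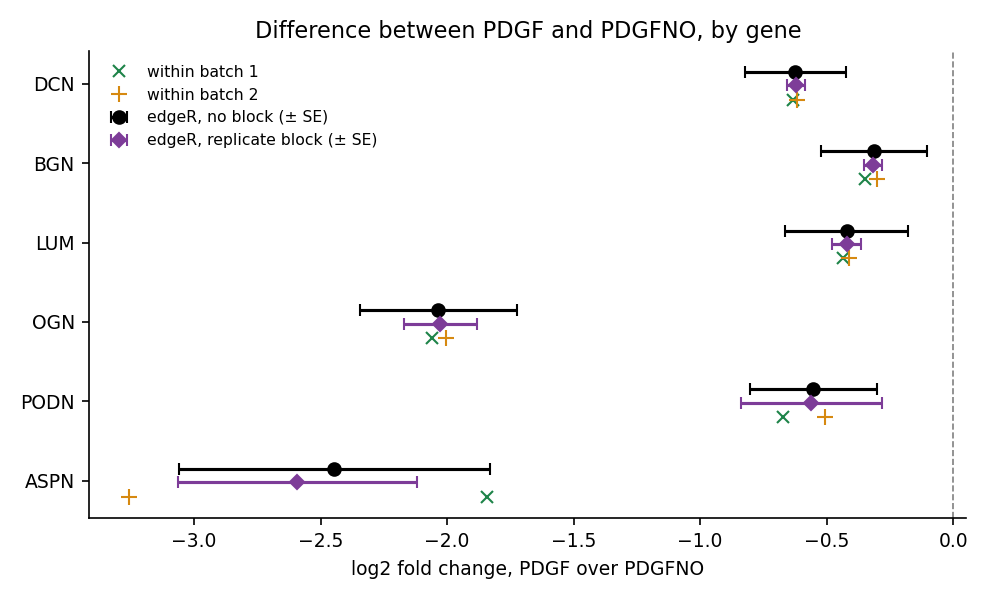
Log2 fold change of each tested SLRP gene, PDGF over PDGFNO, from edgeR without a block and with the replicate block (points with bars of 1 SE), and the log2 difference within each batch (crosses). Every point lies below 0. For DCN, BGN and LUM the block leaves the value in place and shortens the bar, and for ASPN the batches lie apart, at -1.84 and -3.26.

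The place of replicate 1 within its group differed between members. In the PDGF group the log2 difference of batch 1 from batch 2 was 0.50 for DCN, 0.61 for LUM and 0.68 for OGN, but -0.58 for BGN. In the PDGFNO group these differences were nearly the same, at 0.51 for DCN, 0.64 for LUM, 0.73 for OGN and -0.53 for BGN. PODN barely moved between batches (-0.08 with PDGF and 0.08 without). ASPN was the exception, with a batch difference of 2.19 with PDGF, on 20, 4 and 3 counts, and of 0.77 without it. Thus for DCN, LUM and BGN the batches lay about as far apart as the groups, or further.

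Levels of different genes were compared per length, as transcripts-per-million (TPM) from the total exon length of each gene. Biglycan and decorin were the main SLRP transcripts of these cultures. With PDGF, BGN had 817 ± 134 TPM and DCN 667 ± 188 TPM, followed by LUM at 160 ± 53.6, OGN at 6.11 ± 2.28, PODN at 1.84 ± 0.334 and ASPN at 0.585 ± 0.617 TPM (SD, n = 3). Without PDGF, DCN had 910 ± 286 TPM and BGN 894 ± 108 TPM, and LUM followed at 190 ± 70.0, OGN at 22.3 ± 9.44, ASPN at 2.85 ± 1.24 and PODN at 2.39 ± 0.355 TPM (SD, n = 3).

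The order of BGN and DCN went with the batch and not with PDGF. In batch 1 DCN was above BGN, at 883.2 against 668.2 TPM with PDGF and at 1241 against 769.9 TPM without it. In batch 2 BGN was above DCN in all 4 libraries, with a ratio of BGN to DCN per base of 1.56 and 1.62 with PDGF and of 1.27 and 1.29 without it. In batch 1 this ratio was 0.757 with PDGF and 0.62 without. Within each batch the ratio was therefore higher with PDGF, while the groups as a whole overlapped (1.31 ± 0.484 against 1.06 ± 0.382, SD, n = 3).

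At the low end, ASPN was below PODN in all 3 PDGF libraries, and without PDGF the ranges of these genes overlapped. In both groups the ranges of LUM and of OGN over libraries overlapped with that of no neighbour in this order.

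**Figure D3:**
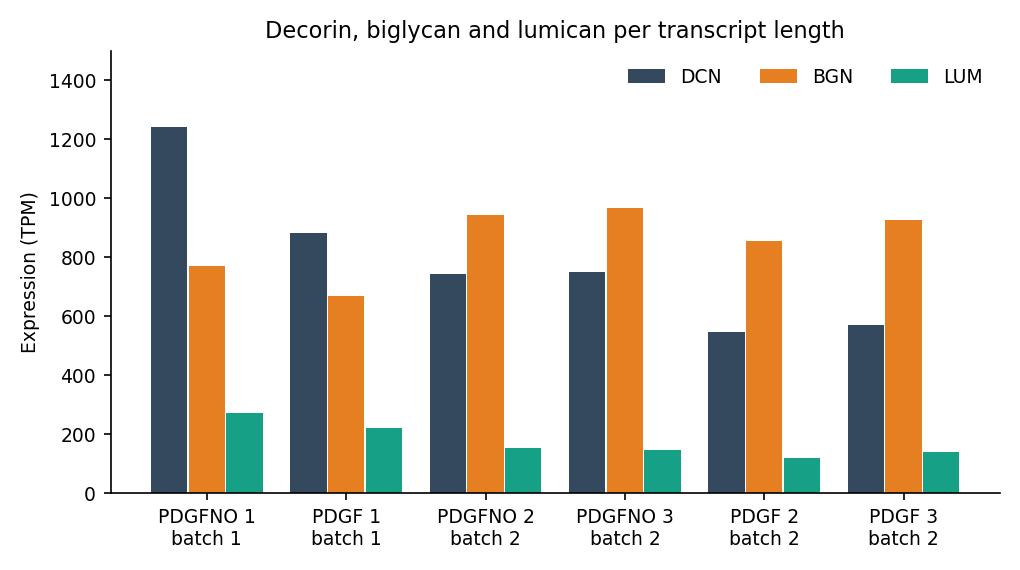
Transcripts-per-million (TPM) of DCN, BGN and LUM in each library, ordered by batch. DCN is the tallest bar in both libraries of batch 1 and BGN in the 4 libraries of batch 2, whether or not PDGF was present, and LUM is the lowest throughout.

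Together the 8 listed genes took 0.199%, 0.181% and 0.191% of all counts in PDGF replicates 1, 2 and 3 and 0.287%, 0.248% and 0.252% in the PDGFNO replicates. The groups did not overlap, with means of 0.190% ± 0.00862 and 0.262% ± 0.0214 (SD, n = 3). Most of this sum was DCN and BGN, whose part in the SLRP counts overlapped between groups: DCN made up 43.2% ± 9.06 with PDGF and 47.6% ± 8.58 without, and BGN 50.4% ± 10.7 and 45.2% ± 10.3 (SD, n = 3). For OGN and ASPN, minor members by count, the part was smaller with PDGF. OGN made up 0.546%, 0.307% and 0.377% of SLRP counts with PDGF and 1.58%, 1.19% and 0.846% without, and ASPN 0.0333% ± 0.0331 and 0.134% ± 0.0402 (SD, n = 3), both with no overlap.

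Ratios between members within a library do not depend on the scaling between libraries. Per base, DCN exceeded OGN by 102, 130 and 104 times in PDGF replicates 1, 2 and 3 and by 38.0, 37.3 and 52.5 times in PDGFNO replicates 1, 2 and 3, with no overlap. The ratio of DCN to LUM was 4.23 ± 0.285 with PDGF and 4.86 ± 0.261 without it (SD, n = 3), also with no overlap. Both ratios are given as a description, with no test.

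No other gene had the same counts as DCN, LUM, BGN, ASPN, OGN or PODN in all libraries, and none of the 9 genes shares exon bases with another gene in the RefSeq annotation of Mmul_10. DCN, LUM, FMOD, ASPN and OGN share no run of 31 bases with transcripts of another gene, and for BGN 1.62% and for PODN 0.266% of such runs are shared. The members lie in groups on the genome. LUM and DCN are neighbours, next to the SLRP genes KERA and EPYC, and OGN, OMD and ASPN follow each other inside the gene of the centromere protein CENPP, on its opposite strand and with no exon bases in common. CENPP itself was counted 199, 147 and 145 times in PDGF replicates 1, 2 and 3 and 111, 108 and 152 times in the PDGFNO replicates, and its log2 fold change was 0.06 (SE 0.232, edgeR adjusted p = 0.874). Of the genes listed around the SLRP genes, 6 were tested, 0 were called higher and 1 lower (block 1 and 2), with a median log2 fold change of -0.16. The call was CCER1, a gene of haploid germ cells near DCN, with 4 counts with PDGF and 61 without (log2 fold change -4.14, SE 0.707, edgeR adjusted p = 0.00591). The others had log2 fold changes of 0.36 (IPPK, adjusted p = 0.164), 0.13 (NOL8, 0.748), -0.56 (ATP2B4, 0.153) and -0.38 (PRG4, 0.792) in edgeR.

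Of 9 further SLRP genes, 3 were listed and 0 were tested. EPYC summed to 7 counts over the PDGF libraries and 10 over the others (ratio of PDGFNO to PDGF 1.78, exact 95% interval 0.612 to 5.51), OPTC had 0 and 3, and CHADL was listed at 0. None of these could carry a comparison.

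The enzymes that build the chains on SLRP cores were counted next. For these and the lists that follow, the share over all genes was again 7.61% higher and 10.7% lower, and 31.1% and 29.0% with the block, and a count near these shares is no result about a list. Of 6 tested genes for the linker to which every chain is attached, 1 was called higher and 1 lower (block 1 and 3), close to these shares, with a median log2 fold change of -0.071. FAM20B, the kinase that phosphorylates the linker xylose, was higher (log2 fold change 0.75, SE 0.203, edgeR adjusted p = 0.0371), and PXYLP1, the phosphatase that removes this phosphate, was lower (-1.67, SE 0.139, adjusted p = 2.61e-04). PXYLP1 stood at 63.92, 56.07 and 59.65 CPM with PDGF and at 211.0, 181.1 and 179.2 CPM without. With replicates 2 and 3 summed FAM20B was not called (adjusted p = 0.23). Its call was also lost without PDGF replicate 2 or 3 or PDGFNO replicate 2 or 3 (adjusted p 0.0845 to 0.135).

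Chondroitin and dermatan sulfate, the chains of decorin and biglycan, are made by enzymes of which 14 were tested, and 3 were called higher and 0 lower (block 6 and 1), with a median log2 fold change of 0.216. At an unadjusted p under 0.05, and by DESeq2 and limma-voom, the number lower was also 0. The chain-building CSGALNACT2 (1.00, SE 0.184, edgeR adjusted p = 0.00811) and CHSY1 (0.92, SE 0.175, adjusted p = 0.00932) and the sulfotransferase CHST11 (1.43, SE 0.247, adjusted p = 0.00616) were higher, and CHST11 shares exon bases with a LOC gene, so that its reads are uncertain. With replicates 2 and 3 summed, none of these 3 was called (edgeR adjusted p = 0.102 for CSGALNACT2, 0.0872 for CHSY1 and 0.0595 for CHST11). For keratan sulfate, the chain of lumican and fibromodulin, and for sulfate and sugar supply, 11 genes were tested. Of these, 2 were higher and 0 lower (block 7 and 0), with a median of 0.276. The number lower was 0 in the same other tests. SLC35D1, whose value was this median, and UGDH supply sugar precursors of chondroitin sulfate. The block called both higher, and neither was called without it (edgeR adjusted p = 0.393 and 0.0996). UGDH shares exon bases with a LOC gene, so that its reads are uncertain. CHST1, the keratan sulfate galactose sulfotransferase, rose from 2.628, 6.418 and 6.173 CPM without PDGF to 15.12, 24.01 and 26.29 CPM with it (2.11, SE 0.363, adjusted p = 0.00607). B3GNT2 (0.71, SE 0.191, adjusted p = 0.0366) was called only with all libraries or without PDGFNO replicate 1, and with another library left out had adjusted p of 0.0567 to 0.134, or of 0.209 with replicates 2 and 3 summed.

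**Figure D4:**
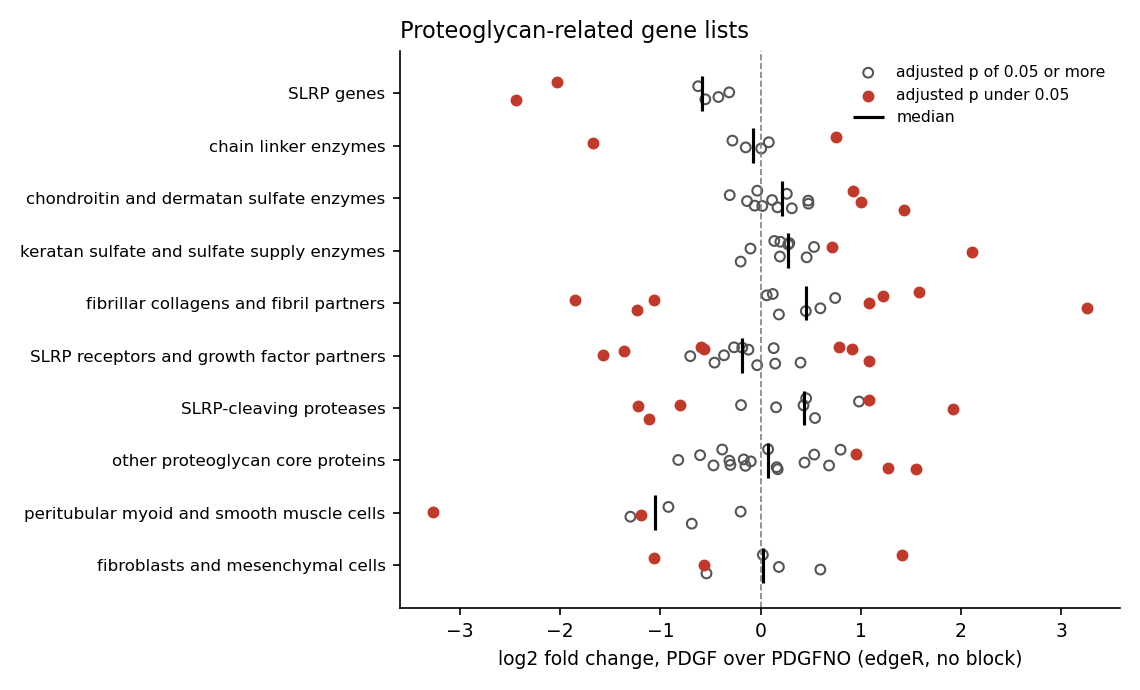
Log2 fold change (edgeR without a block, PDGF over PDGFNO) of each tested gene in the SLRP list and in lists around it. Points are genes, filled where the adjusted p was under 0.05, and bars are medians. All 6 SLRP genes lie below 0, with a median of -0.587. The chondroitin sulfate list has a median of 0.216, and the list of keratan sulfate and supply genes one of 0.276.

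The collagens that SLRPs coat went both ways. Of 13 tested fibrillar collagens and fibril partners, 4 were called higher and 3 lower (block 8 and 3), and the median log2 fold change was 0.452. COL5A3 (3.26, SE 0.217, edgeR adjusted p = 1.06e-04), COL6A1 (1.58, SE 0.27, adjusted p = 0.00584) and COL12A1 (1.23, SE 0.114, adjusted p = 4.09e-04) were higher, and COL11A2 (-1.85, SE 0.343, adjusted p = 0.00841), COL11A1 (-1.23, SE 0.247, adjusted p = 0.0118) and COL3A1 (-1.07, SE 0.0997, adjusted p = 4.21e-04) were lower. COL11A2 shares exon bases with a LOC gene, and COL11A1 was not called without PDGF replicate 2 (adjusted p = 0.0515). COL3A1, a fibril collagen of soft tissue, stood at 2757, 2868 and 2931 CPM with PDGF and at 6258, 5848 and 5809 CPM without. With replicates 2 and 3 summed, 4 of the 13 were called higher and 1 lower. The ratio of COL1A1 counts, the main chain of type I collagen, to DCN counts was 4.04 with PDGF and 1.73 without it in batch 1. In batch 2 this ratio was 11.5 and 11.4 with PDGF and 4.98 and 4.87 without.

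SLRP receptors and growth factor partners were tested for 17 genes, with 3 called higher and 4 lower (block 5 and 8) and a median of -0.183. With replicates 2 and 3 summed, 0 were called higher and 1 lower. The decorin receptors split: EGFR was higher (1.08, SE 0.167, edgeR adjusted p = 0.00386), at 40.23 to 48.38 CPM with PDGF against 17.99 to 23.08 without, and MET was lower (-1.57, SE 0.23, adjusted p = 0.00319), at 3.988 to 4.432 CPM against 9.798 to 15.11. The biglycan receptors TLR4 (0.92, adjusted p = 0.0103) and TLR2 (-1.37, adjusted p = 0.0293) also went apart, with BMP4 higher (0.78, adjusted p = 0.041) and TGFB3 lower (-0.59, adjusted p = 0.00788). TLR4 lost its call without PDGFNO replicate 2 (adjusted p = 0.0515) or 3 (0.0501) and TGFB3 without PDGF replicate 3 (0.05). TLR2 was called in 1 of the 6 fits that left out a library, the one without PDGFNO replicate 1, and BMP4 in 1, the one without PDGFNO replicate 3. Their other adjusted p reached 0.116 and 0.13.

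Proteases that cut SLRPs were listed together with PCOLCE and PCOLCE2, which enhance a procollagen protease and are not proteases themselves. Of 11 tested genes, 2 were higher and 3 lower (block 6 and 4), with a median of 0.429. That median was the value of PCOLCE. Neither PCOLCE (edgeR adjusted p = 0.364) nor PCOLCE2 (0.144) was called without the block, and both were called higher with it. MMP9 (1.92, edgeR adjusted p = 0.00395) and ADAMTS1 (1.08, adjusted p = 0.00488) were higher, and ADAMTS5 (-1.22, adjusted p = 0.013), MMP2 (-1.12, adjusted p = 0.0017) and MMP14 (-0.80, adjusted p = 0.0125) were lower. ADAMTS5 was not called without PDGF replicate 2 (adjusted p = 0.0507) or PDGFNO replicate 3 (0.0541), nor MMP14 without PDGFNO replicate 2 (0.058) or 3 (0.057). With replicates 2 and 3 summed, 1 of the 11 was higher and 1 lower. Of 19 other proteoglycan core proteins, 3 were higher and 0 lower (block 9 and 2), with a median of 0.075, and the number lower was 1 at an unadjusted p under 0.05, 1 by DESeq2 and 0 by limma-voom. The 3 were SRGN (1.55, adjusted p = 0.00193), the intracellular granule proteoglycan, TGFBR3 (1.28, adjusted p = 0.00746), the TGF-beta co-receptor, and VCAN (0.96, adjusted p = 0.0075), the large chondroitin sulfate proteoglycan versican. Of these, only SRGN was called with replicates 2 and 3 summed (adjusted p = 0.0709 for TGFBR3 and 0.0844 for VCAN).

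Markers of cells that could be in these cultures moved with the SLRP genes in part, and their part in the SLRP results was not tested. Of the 6 tested markers of peritubular myoid and smooth muscle cells, 6 had a negative log2 fold change and 2 were called lower (block 5), with a median of -1.055, and their summed level was 369 to 480 CPM with PDGF and 698 to 910 CPM without. The 2 called were ACTA2, at 134.0 to 146.1 CPM with PDGF against 299.9 to 327.9 without, and DES, at 2.903 to 4.144 against 26.53 to 38.41. MYH11, which the study used with ACTA2 to mark these cells, had overlapping groups, at 4.926 to 7.963 CPM against 7.145 to 8.333. It had no call with or without the block, and it shares exon bases with other genes. Of 7 tested fibroblast and mesenchymal markers, 1 was higher and 2 lower (block 3 and 3), with a median of 0.023. Their summed level was 13000 to 18600 CPM against 15200 to 18000. This sum was mostly COL1A1, COL1A2 and COL3A1, all in the collagen list too. COL1A1 was at 4088 to 8241 CPM against 2723 to 5422, and COL3A1 at 2757 to 2931 against 5809 to 6258. The 1 higher was NT5E, which shares exon bases with a LOC gene. The 2 lower were COL3A1 and PDGFRA. PDGFRA was called in 1 of the 6 fits that left out a library. Its counts equalled those of FIP1L1 in all libraries, so its reads are uncertain. Spermatid markers (3 of 3 tested called lower) summed to 48.7 to 76.7 CPM with PDGF and 416 to 689 without, and general germ cell markers (3 of 4 lower) to 0.451 to 1.42 CPM against 6.08 to 9.58. The sum over undifferentiated spermatogonial markers was 209 to 223 CPM with PDGF and 231 to 249 without. Of 2 tested, 0 were called by edgeR without a block, DESeq2 or limma-voom, and 1 was lower at an unadjusted p under 0.05. This sum was almost wholly ID4, at 127.2 to 135.4 CPM with PDGF and 148.1 to 176.6 without, and ETV5, at 78.58 to 95.92 against 71.13 to 81.14. With the replicate block ID4 was called lower (edgeR adjusted p = 4.95e-05) and ETV5 higher (0.0112). ETV5 shares exon bases with a LOC gene. Of the other markers in this list, GFRA1 had 5 and 18 counts in the groups, SALL4 1 and 20, ZBTB16 1 and 9, ERBB4 4 and 1 and PIWIL4 3 and 0, and NANOS2 was listed at 0. With replicates 2 and 3 summed, edgeR called 2 peritubular, 2 spermatid and 1 general germ cell marker lower.

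The other marker lists gave few calls without the block. The 1 tested marker of differentiating spermatogonia, REC8, was lower (median -1.157, edgeR adjusted p = 0.0479, 1.15 to 2.18 CPM against 3.33 to 4.21). REC8 was called in 0 of the 6 fits that left out a library. It shares exon bases with IPO4, so that its reads are uncertain. STRA8 and DMRT1 were listed at 0. Among 4 tested Sertoli markers 1, CLU, was higher (median 0.082, 1450 to 1920 CPM against 868 to 1170). This sum was mostly CLU, at 1338 to 1781 CPM with PDGF and 774.5 to 1023 without. INHA, WT1 and GATA4 had no call. FATE1, below the filter, went the other way, with 0 counts with PDGF and 33 without. Among 4 tested Leydig markers 1, IGF1, was lower (median 0.305, 266 to 333 CPM against 232 to 269, with CYP11A1 at 0). The block called 2 Leydig markers higher, DLK1 and STAR, and 1 lower, IGF1. The Leydig sum was mostly STAR, at 256.5 to 321.6 CPM against 215.3 to 254.1. STAR had the same counts as LSM1 in all libraries, so its reads are uncertain. Endothelial markers had 0 of 4 called by edgeR without a block, DESeq2 or limma-voom and 1 at an unadjusted p under 0.05 (median -0.227, 7.96 to 10.8 CPM against 6.65 to 9.77). With the block PECAM1 was called higher and TEK lower (edgeR adjusted p = 0.0183 and 0.0368). Myeloid markers had 0 of 2 called in any of these ways (median -0.088, 16.4 to 18.6 CPM against 11.3 to 17.7, with PTPRC at 0), and no T cell marker was tested, with CD3E and CD3G at 0.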

How the data were processed

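Bulk RNA sequencing libraries, 3 labelled PDGF and 3 labelled PDGFNO, were analysed. The authors deposited expected counts per gene, not normalized, of which 13 genes have a value that is not whole, so values were rounded. The submitters' processing notes name fastp, HISAT2 2.1.0, SAMtools and featureCounts 2.0.1, with both Mmul_10 and Mmul_8.0.1 as builds, so no coordinates or sequences are given. It is not stated whether counting used strand. RefSeq release 103 of Mmul_10, which holds 17021 of the names, served for exon lengths, TPM, gene order and shared runs of 31 bases.

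Counts were filtered with filterByExpr by group, scaled by TMM and tested with edgeR 4.0.16 (quasi-likelihood, R 4.3.3), with Benjamini-Hochberg adjustment over all 11539 genes. The SE is the absolute log2 fold change over the square root of F. Differences within a batch used 0.5 added counts, and intervals of ratios were exact (Clopper-Pearson). Intervals cover counting error only. The steps were tested on simulated counts. The labels put same-numbered libraries of both groups in 1 batch. Centred on its group mean, each gene's value in PDGF replicate 1 was correlated with that in PDGFNO replicate 1 (r = 0.73 over genes), and likewise for replicates 2 (r = 0.35) and 3 (r = 0.37). Cross pairs inside batch 2 reached r = 0.39 and 0.36, so these values do not show that replicates 2 and 3 pair by number. The replicate block took the numbers as pairs all the same, and the batch term did not.

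The named genes are the SLRP members, the tested other SLRP genes and neighbours, and, per list, the called genes with the largest absolute log2 fold change, at most 3 rising and 3 falling. The rest, among them COL1A1, EPYC, ACTA2 and the other marker genes with a value, were chosen after their values were seen. Members and lists were chosen with earlier results of these data known. Alternatives were DESeq2 1.42.0, limma-voom (limma 3.58.1), other scaling factors, filters and thresholds, the replicate block, a batch term, replicates 2 and 3 summed, and each library left out. Other software was Python 3.11.15 with scipy 1.17.1, pandas 2.3.3 and matplotlib 3.10.9.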

Additional observations from a re-analysis of the deposited data

How the results depend on the processing

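No alternative turned the sign of a tested SLRP gene (20 settings each, 19 for ASPN). In each of these that had a test, OGN was called and PODN was not. DCN gained a call in 6 settings, LUM and BGN in 4 each, and ASPN lost its call in 5, among them replicates 2 and 3 summed (adjusted p = 0.129), and was removed by requiring 10 or more counts in each library. The number of SLRP genes lower, 2, became 5 with the replicate block, 5 with a batch term, 5 with replicates 2 and 3 summed and a batch term, and 5 in batch 2 alone, a setting chosen after seeing the data. It became 1 with replicates 2 and 3 summed, 1 when 10 or more counts were required and 1 at an adjusted p under 0.01, and ranged from 1 to 3 with a library left out. The number higher stayed at 0. The SLRP difference in percent of library counts, -0.0719, was -0.0882 within batch 1, which holds 1 library per group. In batch 2 the percents were 0.181 and 0.191 with PDGF and 0.248 and 0.252 without it.

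Over all genes, 878 higher and 1230 lower became 3587 and 3347 with the replicate block, 3604 and 3387 with a batch term, 206 and 487 with replicates 2 and 3 summed, 3669 and 3420 with that sum and a batch term, 3041 and 3085 in batch 2 alone, and 358 and 544 at an adjusted p under 0.01. With an absolute log2 fold change of at least 1, 393 were higher. Leaving out a library gave 435 to 1284 higher and 726 to 1726 lower. Among listed genes without a call, the log2 fold change with a library left out ran from -0.087 to 0.301 for CENPP, from -0.045 to 0.392 for NOL8 and from -0.942 to 0.716 for PRG4. In batch 2 alone it was -0.189 for CENPP and 0.505 for PRG4, and by limma-voom it was 0.823 for PRG4. Upper quartile scaling shifted the median log2 fold change by -0.065. Depth limits FMOD and, with 3 to 60 counts a library, ASPN. The causes of these changes were not tested.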
